A study of Rattus norvegicus with 8 samples.

Results

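Cyclic nucleotide phosphodiesterases are the enzymes that break down cAMP and cGMP, the second messengers that relax vascular smooth muscle. The 10 genes described here, Pde1a, Pde1b, Pde1c, Pde2a, Pde3a, Pde3b, Pde4a, Pde4b, Pde4d and Pde7b, were taken by symbol from a table of 32623 rat genes. Each symbol had a single row. They are part of a family of 24 genes whose other 14 members are given more briefly for comparison.

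RNA was sequenced from rat (Rattus norvegicus) lung tissue in 2 groups of 4 libraries. The MCT group came from rats treated with monocrotaline, a plant alkaloid that injures lung vessels and is used as a model of pulmonary hypertension, and the control group from rats labelled only as controls. Strain, age, sex, dose, vehicle and time after treatment are not given in the sources used here. The labels do not say whether each library came from a separate animal, so the p-values below measure the spread between libraries, which may be partly technical. Whole lung mixes many cell types, and in such bulk samples fewer cells of a type and less RNA per cell cannot be told apart.

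The libraries held about 10.8 to 14.8 M read pairs (M, mega) in control and 11.3 to 18.1 M in MCT. Lung was marked by the surfactant gene Sftpc (21500 and 15200 FPKM in control and MCT) and the club cell gene Scgb1a1 (14100 and 16800). MCT 1 differed from the other MCT libraries in several marker sums, with mast cell markers at 212 FPKM against 655 to 956, cardiac myocyte markers at 173 against 32.7 to 59.7 and club cell markers at 31000 against 9140 to 16300. Control 1 stood apart from the other controls in the last 2 of these lists, with cardiac myocyte markers at 74.1 against 33.6 to 50.7 and club cell markers at 22100 against 9850 to 14000, so some results are also given with control 1 and MCT 1 left out. MCT 1 was also the library apart from its group for Pde1a, Pde3b and Pde4a, and the part of these markers in that was not tested. Of the mast cell list, 6 of 7 genes were higher and 1 lower, with sums of 63.5 to 65.9 in control.

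The phosphodiesterase subfamilies differ in substrate and in control. PDE1 enzymes are switched on by calcium, PDE2 is stimulated by cGMP, and PDE3 is inhibited by cGMP while it degrades cAMP, so that these enzymes link both messengers. PDE4, PDE7 and PDE8 are selective for cAMP, and PDE5, PDE6 and PDE9 for cGMP. In the pulmonary circulation, PDE5 is the target of sildenafil, PDE3 inhibitors act as vasodilators, and PDE4 inhibitors are used against airway inflammation.

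Among the 10 genes, Pde3a and Pde2a fell in MCT lung, by 2.15 (SE 0.20) and 0.73 (SE 0.15) on the log2 scale. Of the 9 genes with enough reads to be tested, these 2 (22.2%) were lower and none was higher at an adjusted p under 0.05 by edgeR's quasi-likelihood test, while the other 7 missed the threshold. Of the 16715 genes tested in the whole table, 20.5% were called in either direction, 9.45% as lower and 11.0% as higher, so the share of phosphodiesterase genes called in either direction was near the background. Likewise, the FPKM ranges of the groups did not overlap for 2 of the 9 genes, against 25.0% of all genes tested. The median log2 fold change was -0.35 over the 9 genes and 0.03 over all genes tested. At an unadjusted p under 0.05, edgeR placed 1 gene higher (Pde3b) and 4 lower. DESeq2 called none higher and 4 lower, adding Pde4b and Pde7b, while limma on log2(FPKM + 0.5) called none higher and 2 lower. DESeq2 also called more of the 16715 genes, 2181 lower and 2266 higher, against 1579 and 1845 by edgeR. By limma, 1536 were lower and 1939 higher. The tenth gene, Pde1c, had too few reads to be tested.

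**Figure D1:**
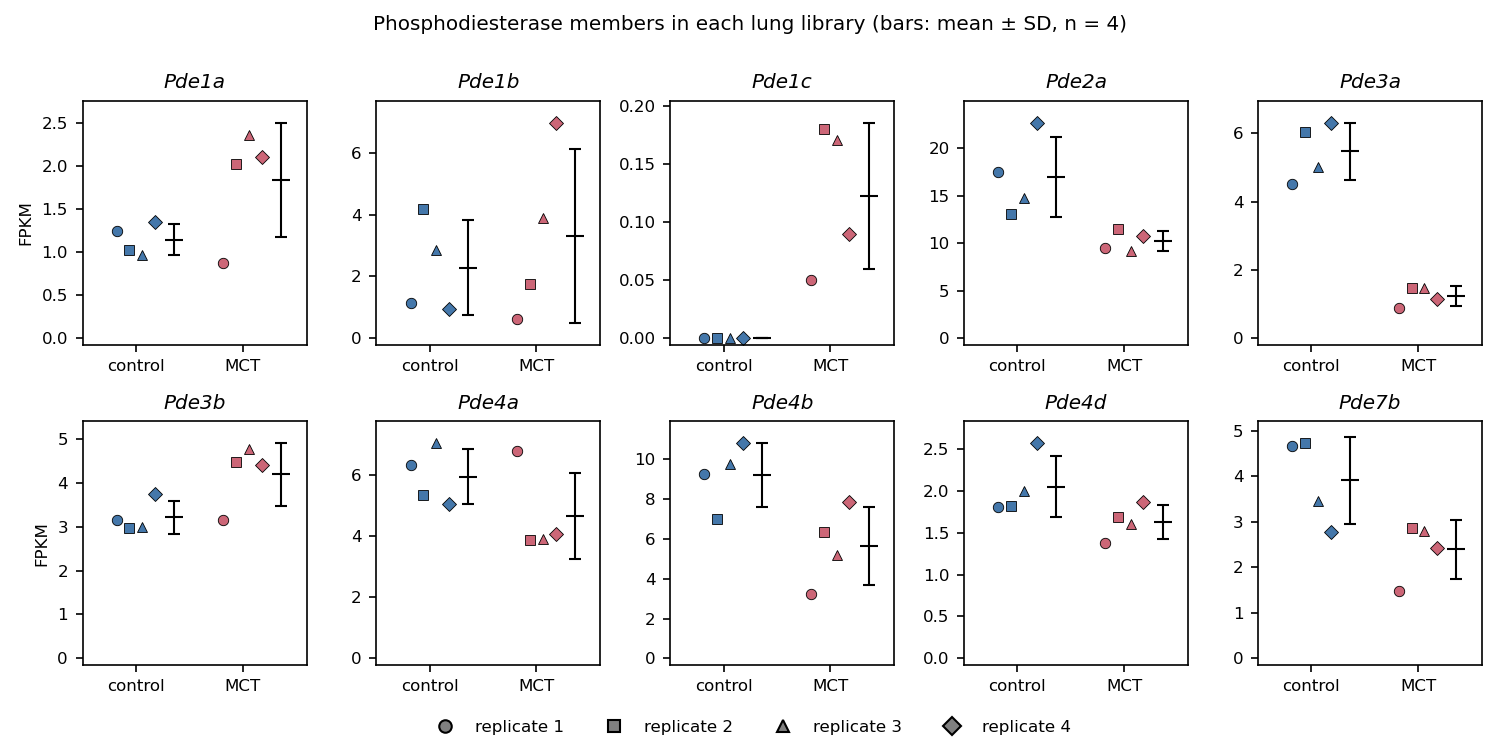
FPKM of each of the 10 genes (y axis, linear) in the 4 control and 4 MCT libraries (x axis), with the symbol giving the replicate number and the bar the mean ± SD of 4 libraries. Pde3a and Pde2a show no overlap between the groups, and Pde1c is at 0 in every control library.

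The proximal promoters of the genes that fell are shown as RefSeq places them, because they lie just before the annotated starts of these genes; the files do not say which start was used. The windows are the 250 bases before each start on the build GRCr8, which is not the Rnor_6.0 build of the deposited positions. Pde3a has 1 start (chr4:175904026-175904275, plus strand) and Pde2a has 2 (chr1:165235373-165235622 and chr1:165265759-165266008, plus strand). Capitals mark every match, on either strand and with overlaps counted, to the cAMP response element TGACGTCA, its half-site TGACG, the GC box GGGCGG, the TATA box TATAAA, the E-box CACGTG and the ETS core GGAAGT.
Pde3a: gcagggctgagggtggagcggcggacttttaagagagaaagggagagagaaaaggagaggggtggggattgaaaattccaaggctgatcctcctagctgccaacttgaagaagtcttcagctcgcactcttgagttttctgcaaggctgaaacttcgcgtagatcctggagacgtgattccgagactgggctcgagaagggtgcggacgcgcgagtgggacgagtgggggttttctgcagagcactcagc
Pde2a start 1: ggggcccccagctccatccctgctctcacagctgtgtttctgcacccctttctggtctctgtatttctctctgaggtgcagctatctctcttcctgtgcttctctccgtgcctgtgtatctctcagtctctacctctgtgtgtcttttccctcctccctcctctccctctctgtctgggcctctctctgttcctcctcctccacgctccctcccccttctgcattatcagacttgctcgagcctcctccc
Pde2a start 2: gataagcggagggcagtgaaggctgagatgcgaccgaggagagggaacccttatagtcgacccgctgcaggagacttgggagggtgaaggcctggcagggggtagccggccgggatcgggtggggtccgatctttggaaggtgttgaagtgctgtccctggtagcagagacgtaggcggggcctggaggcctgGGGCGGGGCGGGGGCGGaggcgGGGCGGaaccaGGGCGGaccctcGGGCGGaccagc

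The second Pde2a window held 6 GC boxes, the farthest beginning 57 bases and the nearest 12 bases before the start. No match to these 6 motifs was found in the Pde3a window or the first Pde2a window. Of all 33469 windows of this length, 30.5% held a GC box, 18.2% a half-site, 1.59% the full cAMP response element, 12.9% a TATA box, 5.59% an E-box and 19.2% an ETS core, and every window with the full element is also counted for the half-site. RefSeq windows were matched for 7 of the 10 genes, with 16 starts in all. None of the 16 held the full element, and the half-site was found in 2 of the 4 windows of Pde4a and 2 of the 5 of Pde4d.

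Pde3a encodes the PDE3 isoform of platelets, heart and vascular smooth muscle. The gene spans chr4:175431904-175700238 (Rnor_6.0, plus strand). Its FPKM, a level scaled to transcript length and library size, was 4.53, 6.03, 5.03 and 6.32 in control libraries 1 to 4 and 0.88, 1.47, 1.46 and 1.15 in MCT libraries 1 to 4. Every MCT library lay far below every control library. The means were 5.48 ± 0.839 (SD, n = 4) in control and 1.24 ± 0.282 in MCT, a level 4.43-fold lower, with an adjusted p of 0.000332 by edgeR. These values rest on 197 to 292 read pairs per control library and 36 to 74 per MCT library. Leaving out any 1 library kept the log2 fold change between -2.24 and -2.02 and the adjusted p at or under 0.00186.

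Pde3b, the paralog best known from fat and liver, did not pass the threshold. The gene spans chr1:183892841-184078071. Its FPKM was 3.14, 2.96, 2.98 and 3.75 in the control libraries and 3.14, 4.46, 4.76 and 4.39 in the MCT libraries. MCT libraries 2 to 4 lay above all controls, while MCT 1 equalled control 1. The log2 fold change was 0.38 (SE 0.14) with an adjusted p of 0.0941 by edgeR. It passed the threshold at 0.0182 without MCT 1 and at 0.0355 with control 1 and MCT 1 left out. MCT 1 stood apart for Pde3b and leaving it out narrows the spread, so these fits add no support.

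The order of the PDE3 paralogs differed between the groups. Pde3a stood at 1.44, 2.04, 1.69 and 1.69 times the FPKM of Pde3b in the control libraries and at 0.28, 0.33, 0.307 and 0.262 times in the MCT libraries. The ratio was above 1 in every control library and below 1 in every MCT library. This pair was singled out after the values had been seen, so the ratio is a description and was not tested. The summed FPKM of both genes was 8.69 ± 1.08 in control and 5.43 ± 0.979 in MCT.

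**Figure D2:**
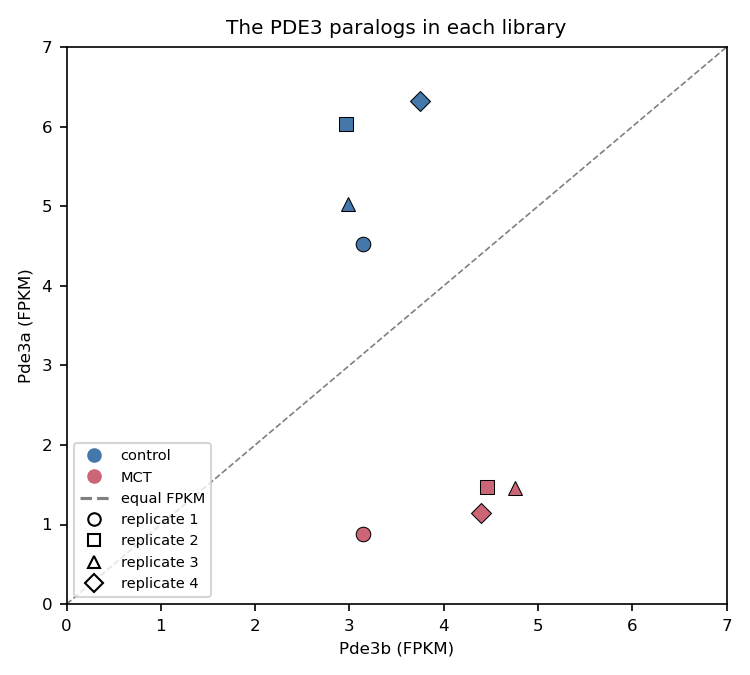
Pde3a (y axis, FPKM) against Pde3b (x axis, FPKM) in each library, with the dashed line marking equal levels. All 4 control libraries lie above the line and all 4 MCT libraries below it.

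Pde2a, a cGMP-stimulated enzyme found in endothelium among other tissues, had the highest level of the 10 genes in both groups. The gene spans chr1:166534643-166626158. Its FPKM was 17.45, 13.12, 14.70 and 22.69 in the control libraries and 9.47, 11.45, 9.21 and 10.79 in the MCT libraries. The groups did not overlap, and control 4 stood highest. The means were 17.0 ± 4.2 and 10.2 ± 1.07 FPKM, a level 1.66-fold lower in MCT with an adjusted p of 0.011 by edgeR. Leaving out any 1 library gave log2 fold changes of -0.83 to -0.57, all past the threshold, with an adjusted p of up to 0.0353.

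Markers of cell types that can hold these transcripts are given beside these falls, against the 20.5% of all genes called in either direction. Of 11 endothelial markers in the table, 4 were lower and 1 higher in MCT, and 6 were not called. The summed FPKM of all 11 was 998 to 1140 in the control libraries and 736 to 909 in the MCT libraries. The largest falls in mean FPKM were those of Tek (130 to 21.2) and Clec14a (152 to 36.9), while Emcn rose (51.1 to 114). Of 10 smooth muscle markers, 1 was higher, with sums of 823 to 1200 and 887 to 1410. Of 9 cardiac myocyte markers tested, 1 was higher, with sums of 33.6 to 74.1 and 32.7 to 173, and the sums of both muscle lists overlapped between the groups. Of 5 platelet markers tested, 1 was higher. This was Pf4, at 33.06, 12.37, 29.57 and 19.34 FPKM in the control libraries and 57.34, 50.65, 53.12 and 61.37 in the MCT libraries, which made up most of the list's sum of 17.0 to 39.8 and 54.9 to 65.9. The other 4 had log2 fold changes of -1.05 to 0.38, and the median of the list was -0.16. None of the markers in these 4 lists was at 0 throughout. Their part in the falls of Pde3a and Pde2a was not tested.

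The genes whose log2 CPM (counts scaled to library size) over the 8 libraries was most like that of Pde3a were Arhgap31 (Pearson r 0.989), Cbfa2t3 (0.985), Rbm12b (0.984), Prf1 (0.984) and Cds2 (0.984). These libraries form 2 groups that differ in many genes, so a high r mainly records that each gene was lower in MCT. Arhgap31, a GTPase-activating protein, went from 36.9 ± 5.61 to 16.2 ± 1.76 FPKM. Prf1, which encodes the perforin of cytotoxic lymphocytes, went from 26.2 ± 4.11 to 6.52 ± 1.54 FPKM. The T and NK cell list that holds Prf1 had 3 of 10 markers lower and 1 higher, with summed FPKM of 89.5 to 141 in control and 71.7 to 92.7 in MCT, and its part in the fall of Pde3a was not tested.

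The cAMP-selective PDE4 genes among the 10, Pde4a, Pde4b and Pde4d, did not pass the threshold. They encode close paralogs, each with long and short isoforms made from separate starts, and how reads shared between such genes were counted was not stated in these sources. Pde4b, the isoform most tied to leukocyte activation, spans chr5:121952977-122136814. Its FPKM was 9.24, 6.96, 9.75 and 10.80 in the control libraries and 3.22, 6.35, 5.16 and 7.82 in the MCT libraries. Only MCT 4 reached into the control range, where control 2 was lowest. The log2 fold change was -0.70 (SE 0.24) with an adjusted p of 0.0721 by edgeR, 0.0238 by DESeq2 and 0.0368 by edgeR without MCT 4. The fit without MCT 4 leaves out the MCT library nearest the controls, so it adds no support. Neutrophil markers, none of which passed the threshold in 7, summed to 14.5 to 44.6 FPKM in control and 30.8 to 104 in MCT, and their part in Pde4b was not tested.

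Pde4a spans chr8:22189600-22233748. Its FPKM was 6.34, 5.36, 7.07 and 5.08 in the control libraries and 6.80, 3.89, 3.92 and 4.08 in the MCT libraries. MCT 1 lay among the controls, and the other 3 MCT libraries lay below all of them. With all libraries the log2 fold change was -0.35 (SE 0.22, adjusted p 0.299 by edgeR), and without MCT 1 it was -0.60 with an adjusted p of 0.0235. With control 1 and MCT 1 left out the adjusted p was 0.0451. Both fits leave out the library that stood apart for Pde4a, so they add no support.

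Pde4d, an isoform of smooth muscle and heart, spans chr2:40554146-41464264. Its FPKM was 1.80, 1.82, 2 and 2.57 in the control libraries and 1.37, 1.69, 1.6 and 1.86 in the MCT libraries. The ranges overlapped only through MCT 4, which was above controls 1 and 2. The log2 fold change was -0.33 (SE 0.18, adjusted p 0.241 by edgeR), and none of the 19 other fits run for this gene called it.

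Pde7b, a cAMP-selective enzyme that the PDE4 inhibitor rolipram does not block, spans chr1:15893533-16203909. Its FPKM was 4.68, 4.74, 3.47 and 2.79 in the control libraries and 1.48, 2.86, 2.81 and 2.43 in the MCT libraries. MCT 2 and MCT 3 were just above the lowest control, so the groups overlapped. MCT differed from control by -0.72 on the log2 scale (SE 0.26), close to the log2 fold change of Pde2a, which had an SE of 0.15. The adjusted p was 0.0863 by edgeR and 0.043 by DESeq2. The coefficient of variation was alike in control (24.3%, against 24.7% for Pde2a) and wider in MCT (26.7% against 10.4%). Pde7b also rests on fewer read pairs per library, 32 to 129 against 491 to 1175 for Pde2a.

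The calcium-stimulated PDE1 genes were the members with positive log2 fold changes beside Pde3b. Pde1a, an isoform of smooth muscle and brain, spans chr3:66803247-66885094. Its FPKM was 1.24, 1.02, 0.97 and 1.35 in the control libraries and 0.87, 2.03, 2.36 and 2.11 in the MCT libraries. MCT 1 was the lowest of all 8 libraries and the other 3 MCT libraries were the highest. Over all libraries it differed by 0.68 on the log2 scale (SE 0.31, adjusted p 0.163 by edgeR). Without MCT 1 it was 0.90 with an adjusted p of 0.0204, and 0.94 with an adjusted p of 0.0319 when control 1 was left out as well. Both fits leave out the library that stood apart for Pde1a, so they add no support.

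Pde1c spans chr4:86359820-86630543 and encodes the PDE1 isoform known from proliferating smooth muscle cells. No read was counted for it in the 4 control libraries, and the MCT libraries held about 2, 9, 8 and 7 read pairs (0.05, 0.18, 0.17 and 0.09 FPKM). Against a floor of 3 read pairs over the whole control group, the observed 26.2 read pairs of the MCT group gave a 7.96-fold higher level. The floor allows for counting error in control only, and with the error of the MCT count the ratio may be lower. The gene did not pass the filter on low counts. Where a looser filter or a smaller group let it in, it was called, with adjusted p of 0.0105 without a filter and 0.0106 to 0.019 without control 1, 2, 3 or 4 or MCT 1. It entered those fits only through its MCT values, so these calls add no support.

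Pde1b, an isoform of neurons and macrophages, spans chr7:145117951-145145376. Its FPKM was 1.13, 4.19, 2.84 and 0.95 in the control libraries and 0.61, 1.74, 3.90 and 6.98 in the MCT libraries. Both groups were spread widely, with coefficients of variation of 67.3% and 84.7%, against 10.4% to 36.0% for the other 8 tested genes. The log2 fold change was 0.52 (SE 0.73, adjusted p 0.679 by edgeR) and -0.15 without MCT 4.

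Markers of the lung surface are given beside Pde1b, since they were high and low in the same libraries. The summed FPKM of 8 mesothelial genes, which mark the cells covering the lung, was 114, 190, 146 and 52.5 in the control libraries and 62.8, 113, 194 and 283 in the MCT libraries. MCT 4 was highest and control 4 and MCT 1 were lowest for both Pde1b and this sum. The best known of these genes, Msln, stood at 99.85 FPKM in MCT 4 and 22.86 in control 4, and only Calb2 was at or near 0 in all libraries. The list was added after values had been seen, partly because its genes followed Pde1b, so it is no independent evidence, and its part in the spread was not tested. Macrophage markers, of which 6 of 9 tested were higher in MCT, had sums of 246, 266, 365 and 292 in control and 501, 920, 781 and 702 in MCT. The lowest Pde1b level was thus in the MCT library with the lowest macrophage sum, while the highest was in MCT 4.

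In both groups Pde2a ranked first by FPKM, followed by Pde4b and Pde4a. In control lung Pde3a had rank 4, with Pde7b, Pde3b, Pde1b, Pde4d, Pde1a and Pde1c after it, and in MCT lung it had rank 9. The range of Pde2a did not overlap that of Pde4b in either group. In control lung the ranges of each neighbouring pair from Pde4b down to Pde4d overlapped, as did in MCT lung those from Pde4b down to Pde3a. Within single libraries some of these neighbours kept their order, with Pde4b above Pde4a in 4 of 4 control libraries, and Pde7b above Pde1a and Pde4d above Pde3a in 4 of 4 MCT libraries.

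Across the phosphodiesterase family, the summed FPKM of 23 genes (all but the chaperone gene Pde6d) was 121, 135, 138 and 157 in the control libraries and 76.3, 85.8, 97.5 and 101 in the MCT libraries. All MCT sums lay below all control sums. The 10 genes contributed 36.6% ± 3.01 of the sum in control and 39.1% ± 3.1 in MCT, ranges that overlapped. The PDE4 subfamily took 22.7% ± 2.63 in control and 17.6% ± 1.69 in MCT, without overlap. The gap was narrow, between 19.6% in control 1 and 19.3% in MCT 1. In mean summed FPKM, PDE4 went from 31.4 to 15.8, of which Pde4c went from 14.2 to 3.82. PDE8 took 13.8% ± 1.12 and 16.8% ± 1.77, also without overlap. The summed FPKM of PDE8 itself was lower in MCT, at 15 ± 0.41 against 19 ± 2.73 in control. Shares of the cAMP-selective genes (50.9% ± 3.88 and 48.2% ± 4.08), the cGMP-selective genes (27.9% ± 2.2 and 28.6% ± 2.43) and those for both nucleotides (21.2% ± 1.7 and 23.2% ± 2.68) overlapped between the groups. The cGMP-selective genes counted here include the PDE6 subunit genes Pde6g and Pde6h, which are not catalytic. All PDE6 genes counted held 1.1% ± 0.877 of the family sum in control and 1.8% ± 1.63 in MCT. These sums are descriptions of the libraries and were not tested.

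**Figure D3:**
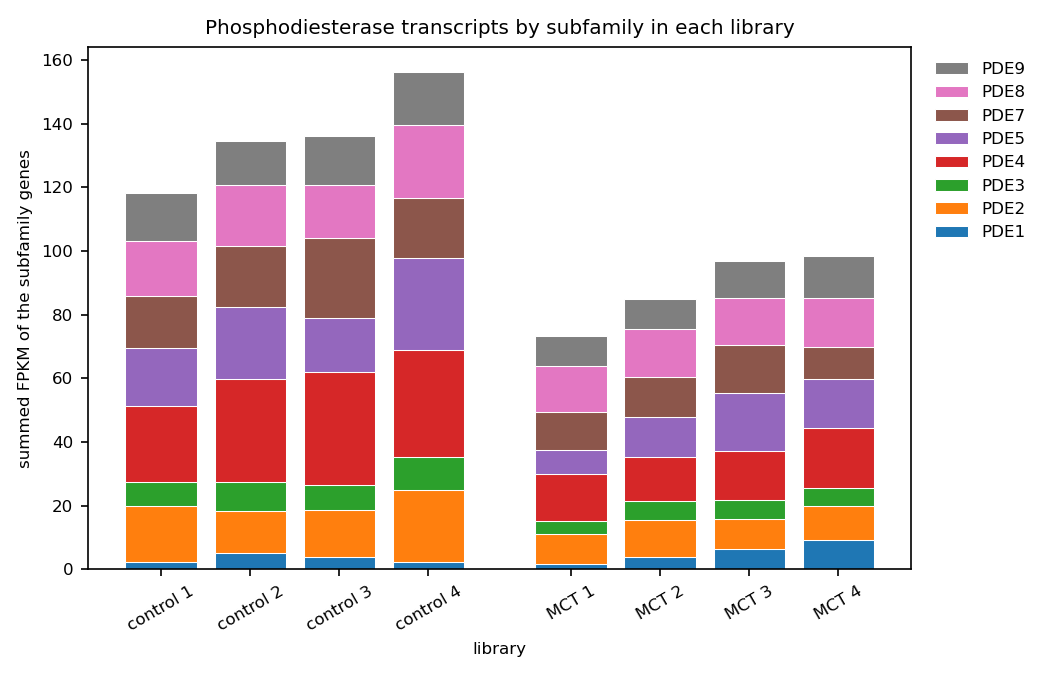
Summed FPKM of the genes of each phosphodiesterase subfamily (stacked bars, y axis from 0) in each library (x axis), leaving out PDE6, PDE10 and PDE11, which held little of the sum. The MCT bars are all shorter than the control bars, and the red PDE4 segment shrinks most.

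Of the 14 family genes outside the 10, 10 had enough reads to be tested, with a median log2 fold change of -0.59. By edgeR 4 were lower (40%) and 1 higher (10%), against 9.45% and 11.0% over all genes tested. Pde4c, the remaining PDE4 gene, fell furthest among these. The symbol Pde4c had 2 rows, and only the row with the higher mean FPKM is described here. Its FPKM was 6.40, 18.21, 16.72 and 15.39 in the control libraries and 3.37, 2.21, 4.72 and 4.98 in the MCT libraries, with control 1 well below the other controls yet above all MCT libraries. The log2 fold change was -1.90 (SE 0.36, adjusted p 0.0078 by edgeR), near that of Pde3a, and it stayed past the threshold without any 1 library (adjusted p up to 0.0226). In the PDE4 subfamily edgeR thus called Pde4c alone, while DESeq2 also called Pde4b, and the difference between paralogs was not tested.

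The cGMP-selective Pde9a fell by 0.49 (SE 0.11, adjusted p 0.0168 by edgeR), and its adjusted p was 0.0512 without MCT 2. The cAMP-selective Pde8b fell by 0.85 (SE 0.22, adjusted p 0.0247), a call lost without control 1 (0.0539), control 4 (0.0605), MCT 2 (0.0735) or MCT 3 (0.0685). Pde7a, the paralog of Pde7b, fell by 0.69 (SE 0.20, adjusted p 0.0400), a call lost without control 2, 3 or 4 or MCT 1, 2 or 4 (adjusted p 0.0604 to 0.0995). Pde6d, which carries lipid-modified proteins and is no enzyme, rose by 0.31 (SE 0.09, adjusted p 0.0401), a call lost without control 2, 3 or 4 or MCT 1, 3 or 4 (0.0541 to 0.107). The number of these genes called lower was 2 without control 4 and 1 without MCT 2.

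Pde5a, the sildenafil target, had a log2 fold change of -0.69 (SE 0.25) with an adjusted p of 0.0887 by edgeR and 0.0233 by DESeq2. Its FPKM was 18.43, 22.58, 17.01 and 28.80 in the control libraries and 7.74, 12.49, 18.09 and 15.63 in the MCT libraries, so the groups overlapped only through MCT 3. Pde8a had a log2 fold change of -0.20 (SE 0.10, adjusted p 0.182). Of the photoreceptor PDE6 genes, Pde6a, Pde6b, Pde6c and Pde6g were at or below 0.06 FPKM in every library and were not tested. The subunit gene Pde6h stood at 0.3 to 2.55 FPKM in control and 0.34 to 2.93 in MCT. It was not called (log2 fold change 0.10, SE 0.85, adjusted p 0.952 by edgeR).

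**Figure D4:**
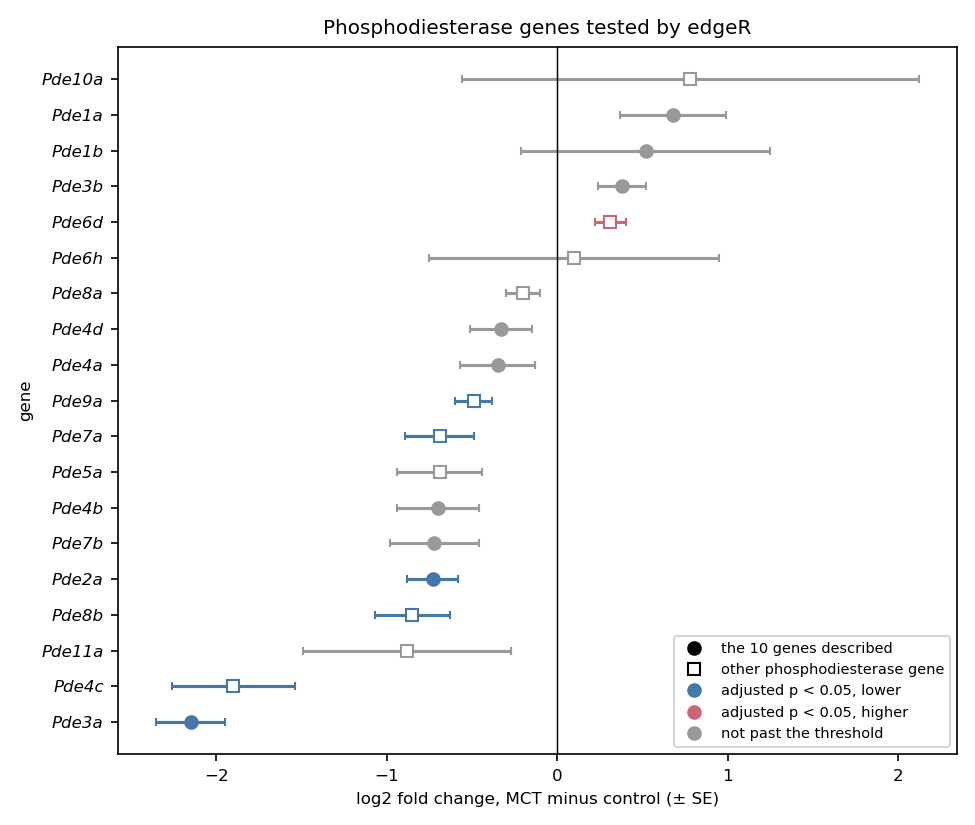
Log2 fold change (MCT minus control, x axis) with its SE for the 19 phosphodiesterase genes tested by edgeR (y axis). Filled circles are the 9 genes described in full and open squares the others, and colour marks the calls, with Pde3a (-2.15) and Pde4c (-1.90) standing apart from the rest.

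The other genes of cyclic nucleotide signalling were mostly lower where they were called. Of 85 tested genes in 6 lists, 26 (30.6%) were lower and 7 (8.24%) higher by edgeR, against 9.45% and 11.0% over all genes, with a median log2 fold change of -0.17. The number lower was 17 without control 1, 15 without control 2, and 16 without control 4, MCT 2 or MCT 3. The number higher was 4 without MCT 2 and 4 with control 1 and MCT 1 left out. Endothelial markers were lower in sum, as given above, and the summed FPKM of alveolar type 2 cell markers was 28900 to 37500 in control and 20800 to 27000 in MCT, with 4 of 8 genes lower and 1 higher. Their part in the pathway counts was not tested.

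The enzymes that make the substrates of the phosphodiesterases came first in this pathway. Of 9 adenylyl cyclases tested, which make cAMP, 4 were lower and 1 higher. Adcy9 fell by 0.80 (SE 0.17, adjusted p 0.0104) and Adcy5 by 0.47 (SE 0.09, adjusted p 0.00692), while Adcy2 rose by 0.59 (SE 0.13, adjusted p 0.0116). Adcy3 fell by 0.39 (SE 0.11), which was not called without control 1, 3 or 4 or MCT 1, 2 or 3. Of 6 guanylyl cyclases tested, which make cGMP, 2 were lower. Npr1, the receptor cyclase for atrial natriuretic peptide, went from 48.9 ± 5.92 to 29.6 ± 3.01 FPKM (adjusted p 0.0024 by edgeR), and Gucy1a1, a subunit of the nitric oxide receptor, from 37.4 ± 6.5 to 26.4 ± 5.06 FPKM (adjusted p 0.0412), a call lost without any 1 library but MCT 3. All 6 had a log2 fold change below 0, between -0.73 and -0.07.

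Of 15 tested receptors that raise cAMP through the G protein Gs, 7 were lower and 2 higher. Calcrl, the shared receptor chain for adrenomedullin and CGRP, went from 76.5 ± 16.7 to 24.7 ± 6.53 FPKM, and Glp1r, the GLP-1 receptor, from 30.7 ± 3.38 to 9.73 ± 3.39. Their adjusted p by edgeR were 0.00156 and 0.00183. Pth1r, the parathyroid hormone receptor, rose by 0.57 (SE 0.12, adjusted p 0.0119 by edgeR). Adcyap1r1, the PACAP receptor, rose by 1.36 (SE 0.42, adjusted p 0.0497 by edgeR), a call lost without any 1 library but control 4. Its level was low, at 0.258 ± 0.141 FPKM in control and 0.647 ± 0.147 in MCT, on 7 to 65 read pairs per library.

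Downstream of the messengers, 1 of 16 effector genes tested was lower by edgeR, and none was higher, also at an unadjusted p under 0.05. The gene that fell was Rapgef3, which encodes the cAMP-activated exchange factor EPAC1 and went from 40.2 ± 5.13 to 17.5 ± 4.12 FPKM (adjusted p 0.00219). The 6 tested genes of protein kinase A subunits had log2 fold changes of -0.07 to 0.21 and were not called. No gene of a cGMP-dependent protein kinase was among the 16 tested. Of 24 anchors, cofactors and transporters, 7 were lower and 2 higher. Abcc4, which exports cyclic nucleotides, fell by 0.52 (SE 0.12), a call lost without MCT 2 (adjusted p 0.0557), and the anchor genes Akap9 and Akap8 fell by 0.42 and 0.35, calls lost without control 4, MCT 2 or MCT 3 for Akap9 and without control 1, 2 or 3 or MCT 3 or 4 for Akap8. Pkib, an inhibitor of protein kinase A, rose by 0.95 (SE 0.17, adjusted p 0.0056 by edgeR).

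Of 15 genes of the CREB family and its targets, 5 were lower and 2 higher. The metabolic coactivator gene Ppargc1a went from 1.41 ± 0.661 to 0.215 ± 0.0311 FPKM (adjusted p 0.00142 by edgeR), and the CREB coactivator gene Crebbp fell by 0.61 (SE 0.12, adjusted p 0.00778). Crtc1, another coactivator, fell by 0.49 (SE 0.13), a call lost without control 2 or 4 or MCT 3 or 4. Crem, a CREB relative, rose by 0.76 (SE 0.18, adjusted p 0.0199; 0.0529 without MCT 2), and Atf1 by 0.36 (SE 0.11, adjusted p 0.0474), a call lost without any 1 of the 8 libraries.

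**Figure D5:**
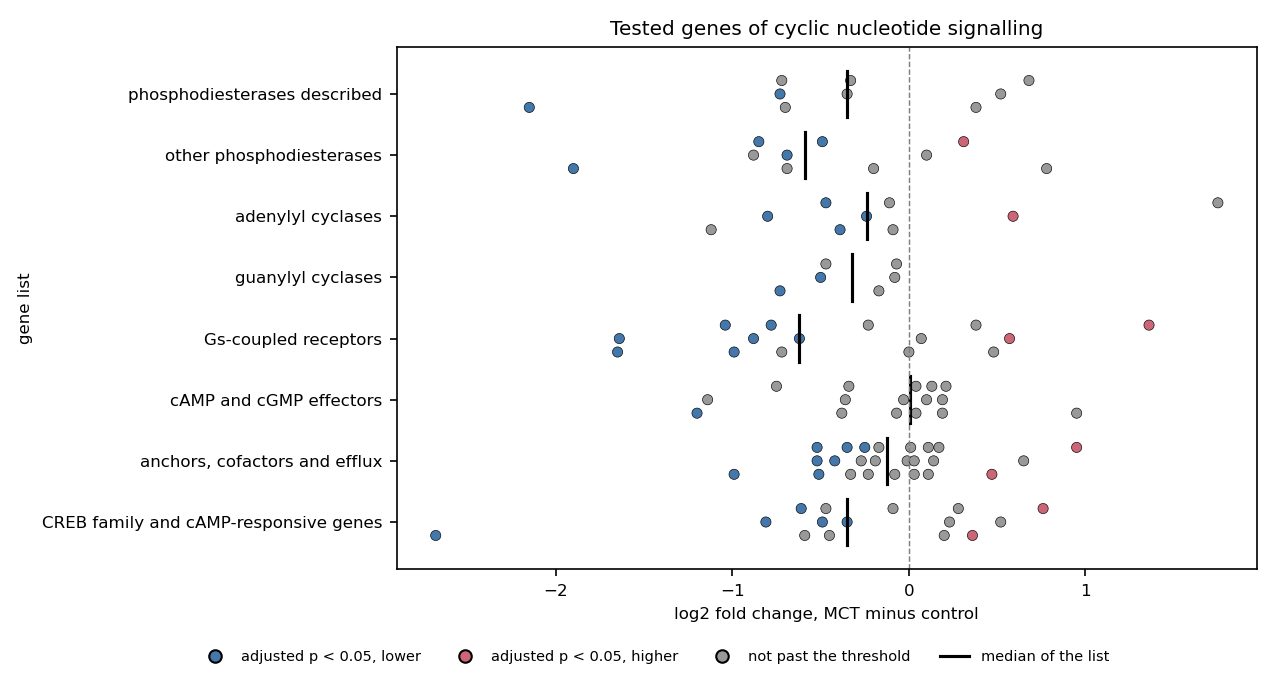
Log2 fold change (MCT minus control, x axis) of each tested gene in the phosphodiesterase and pathway lists (y axis), coloured by call, with the black line at the median of the list. The Gs-coupled receptors have the lowest median (-0.62) and the effectors one near 0 (0.01).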

How the data were processed

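RNA sequencing of 4 MCT and 4 control rat lung libraries was used. Per the submitters' processing notes, the authors used cutadapt 1.9, HISAT2 2.0.4, StringTie 1.3.4d and edgeR with the build Rnor_6.0; order and settings are not given in the sources used here. The deposited table gives FPKM and estimated counts side by side, as its headers name them. In the deposited columns, low estimated counts recur at a spacing of 3.67, taken as 1 read pair; libraries held 10.8 to 18.1 M pairs so defined.

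Genes were filtered (filterByExpr, minimum count 10), scaled by TMM and tested with edgeR 4.0.16 (quasi-likelihood, robust, two-sided, Benjamini-Hochberg over 16715 genes, threshold 0.05) in R 4.3.3. Estimated counts were whole numbers already. Alternatives used DESeq2 1.42.0, limma 3.58.1, other scalings, filters and pseudocounts, left-out libraries, a replicate block and, added after seeing the data, counts divided to read pairs. SDs are over 4 libraries.

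The members and gene lists were chosen with earlier results of these data known. Named genes were all 10 members, all called and the 2 most abundant uncalled other phosphodiesterases, up to 3 called genes per direction with the smallest p in each pathway list, and the 5 genes most like the member with the smallest p. Some listed genes had no row and are not analysed here, and some that the rule names are not reported here.

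This test was first tried on simulated counts with known changes. No 2 libraries of a group were duplicates (chi-square per gene at least 16.1).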

Additional observations from a re-analysis of the deposited data

Results flagged for a closer look

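In 3 of 38 sets of 4 libraries examined (19 phosphodiesterase genes in each group), 1 library lay far from the other 3, where chance gives about 1.9. The library was MCT 1 each time. The distance from it to the nearest other MCT library in log2 CPM, divided by the spread from lowest to highest, was 0.904 for Pde4a (6.80 FPKM, the others 3.89 to 4.08), 0.867 for Pde1a (0.87, the others 2.03 to 2.36) and 0.832 for Pde3b (3.14, the others 4.39 to 4.76).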

How the results depend on the processing

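Pde3a and Pde2a stayed lower and past the threshold in all 19 other fits run for each, between -2.24 and -1.53 and between -0.83 and -0.57. Of the 171 refits of the 9 tested members, 162 left the call as it was and 9 added a call. The number of members higher, 0, was 1 without a filter, 3 with control 1 and MCT 1 left out and 0 to 3 with single libraries left out, with Pde1c in each nonzero count and also Pde1a and Pde3b without MCT 1. The number lower, 2, was 4 by DESeq2, 2 to 3 with single libraries left out and 1 where a log2 fold change past 1 in size was also required. That requirement gave 1 lower and 0 higher among other phosphodiesterases, 5 lower and 1 higher among pathway genes, and 298 lower and 618 higher among all genes. Other phosphodiesterases called higher were 0 without a filter. With single libraries left out, the counts were 0 to 1 higher and 1 to 3 lower for other phosphodiesterases, 4 to 6 and 15 to 21 for pathway genes, and 1191 to 1946 and 975 to 1730 for all genes. Both lowest counts of all genes came without MCT 2. With control 1 and MCT 1 left out, 4 pathway genes were higher. Scaling by median of ratios or upper quartile moved the median of all genes by -0.0122 and 0.0108. Fewer samples or genes enter the left-out and filtered fits, and beyond that the cause was not tested.

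The same replicate numbers occur in both groups, but the labels do not say that a number links libraries. The numbers were therefore not taken as pairs in the main fit. Deviations from the group means correlated with r of 0.11, 0.016, -0.017 and -0.085 for numbers 1 to 4. The r of 0.11 for number 1 was the highest of all pairings of a control with an MCT library. With the replicate number as a block, 2 members were lower and 0 higher, 4 other phosphodiesterases lower and 0 higher (Pde6d lost its call), 18 pathway genes lower and 6 higher, and 1436 genes higher and 1271 lower in all. Depth limits Pde1c most, with 2 to 9 read pairs in the MCT libraries.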
